A study of Mus musculus with 5 samples.

Results

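Selenoproteins carry selenocysteine, an amino acid that is inserted at a UGA codon lying inside the coding sequence. Elsewhere UGA ends translation. At these codons the ribosome reads through with the help of a hairpin in the 3′ untranslated region (the SECIS element), its binding protein SECISBP2, the elongation factor EEFSEC and a dedicated tRNA, and when decoding fails the ribosome stops and the mRNA can become a target of nonsense-mediated decay. Selenoproteins include enzymes that reduce peroxides and thioredoxin, and Gpx4 protects cells from death by lipid peroxidation.

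The 10 genes described here are the selenoproteins Gpx1, Gpx4, Txnrd1, Txnrd2, Selenow, Selenof, Selenot, Selenok, Selenoh and Sephs2. They were found in the table of 135276 transcripts by their Gencode gene symbol, and 34 of their 54 transcripts are annotated as protein-coding. The protein-coding transcript with the highest mean level over all libraries was taken as the main transcript of each gene, and all 10 main transcripts carry an annotated selenocysteine codon. No measured difference between the methods entered the choice of main transcripts.

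Ribosome footprints were sequenced from undifferentiated mouse embryonic stem cells (mESCs), named as the 46C line in the methods, which grew in serum and LIF. All cells received cycloheximide, an inhibitor of elongation, and RNase I (1.3 U, 45 min) trimmed the mRNA around each ribosome. The 3 standard RIBO-seq libraries came from all ribosomes that sedimented through 30% sucrose. The 2 AHARIBO RIBO-seq libraries came from ribosomes held on magnetic beads by nascent peptides with the methionine analogue L-azidohomoalanine (AHA), to which biotin had been coupled by a DBCO reagent at 50 µM. A legend of the study describes standard RIBO-seq as made from the input of the capture. The labels call all 5 libraries untreated, and no AHA dose is stated for them in the sources used here. Libraries are numbered as biological replicates, and the study calls replicates of each method independent without naming separate cultures, so that p-values measure only the spread between these libraries. Counts over all transcripts summed to 6403651 to 11150527 per library after removal of duplicates, and a read that matches several transcripts may enter this sum more than once. All 9 embryonic stem cell markers examined, Pou5f1 and Nanog among them, reached 1 CPM (counts scaled to the library size) in every library, with a summed level of 1452 to 1556 CPM in standard and 1301 to 1426 CPM in AHARIBO RIBO-seq. Of 4 markers of mesoderm and endoderm, 0 reached 1 CPM in every library, and of 3 fibroblast markers only Thy1 did. Of 3 neural markers Sox1 and Tubb3 did, with a summed level of all 3 of 49.5 to 50.1 CPM in standard and 41.7 to 45.9 CPM in AHARIBO RIBO-seq, and the part of these cells in the values below was not tested.

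The recoded codons are shown first, because their place in the coding sequence decides how much of the protein is made after the UGA. Each line gives 12 nt before and after the codon in the main transcript, 5′ to 3′, read in frame from the Gencode M21 sequence (build GRCm38), with the UGA in capitals and written as TGA.

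Selenow: tattgtggagctTGAggctataagccc
Sephs2: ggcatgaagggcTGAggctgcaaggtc
Gpx1: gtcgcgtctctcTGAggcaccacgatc
Selenot: atttgtgtatccTGAgggtaccggcgg
Selenoh: cattgtacgagcTGAcgcgtgtacggc
Gpx4: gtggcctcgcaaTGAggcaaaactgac
Selenof: gaagtctgcggaTGAaaattggggagg
Selenok: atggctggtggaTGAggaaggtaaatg
Txnrd1: cagtctggctgcTGAggttaagcccca
Txnrd2: gtgactggttgcTGAggctaagtcacc

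The lines are ordered from the earliest to the latest UGA. In Selenow, a small thioredoxin-like protein, the UGA was codon 13 of 88, on chromosome 7 at chr7:15920464-15920466, minus strand, in exon 2. In Sephs2, the selenophosphate synthetase that makes the selenium donor for selenocysteine and is itself a selenoprotein, it was codon 63 of 452, at chr7:127273731-127273733, minus strand, in a transcript of 1 exon. In Gpx1, the abundant cytosolic glutathione peroxidase, it was codon 47 of 201, at chr9:108339451-108339453, plus strand, in exon 1. At most 22.9% of the coding sequence precedes the UGA in these 3 genes.

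Selenot, a thioredoxin-like protein of the endoplasmic reticulum membrane, had its UGA at codon 49 of 195, at chr3:58585238-58585240, plus strand, in exon 2. In Selenoh, a nuclear selenoprotein, it was codon 38 of 116, at chr2:84670381-84670383, minus strand, in exon 2. In Gpx4, which reduces lipid hydroperoxides in membranes, it was codon 73 of 197, at chr10:80054737-80054739, plus strand, in exon 3. Selenof, a protein of the endoplasmic reticulum that binds a glycoprotein folding sensor, had it near the middle, at codon 93 of 162, at chr3:144590645-144590647, plus strand, in exon 3.

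The last 3 genes had the UGA at the very end of the coding sequence. In Selenok, an endoplasmic reticulum membrane protein, it was codon 92 of 94, at chr14:29973440-29973442, plus strand, in exon 4. Txnrd1 and Txnrd2, the cytosolic and the mitochondrial thioredoxin reductase, use selenocysteine in a mobile C-terminal tail. Their UGA was codon 498 of 499, at chr10:82896037-82896039, plus strand, in exon 15, and codon 504 of 505, at chr16:18477772-18477774, plus strand, in exon 16.

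**Figure D1:**
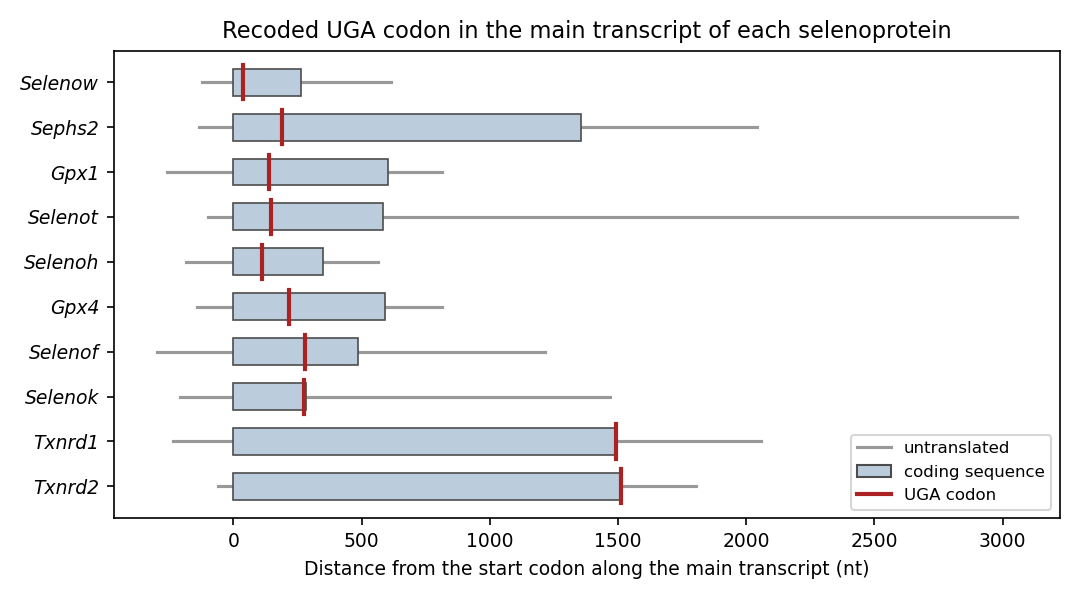
Main transcripts of the 10 selenoproteins, drawn to scale in nt from the start codon, with untranslated regions as lines, coding sequences as boxes and the UGA codon as a red bar. The UGA follows 13.6% of the coding sequence in Selenow and 99.6% in Txnrd1 and Txnrd2, so that 389 codons remain after it in Sephs2 and 1 codon in both reductases.

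Several features of the windows are shared beyond the codon itself. G is the next base after the UGA in 8 of the 10 windows, while Selenof has A and Selenoh has C. In Txnrd1 and Txnrd2 the codon before the UGA is TGC for cysteine, and the codon after it encodes glycine, which gives the glycine, cysteine, selenocysteine and glycine tail known from these enzymes. Selenow, Selenot and Selenoh have TGT for cysteine at the third codon before the UGA, the CxxU arrangement of thioredoxin-like selenoproteins, and Selenof has TGC at the second codon before it. The UGA lay upstream of the last exon junction by 470 nt in Selenot, 342 nt in Gpx4, 266 nt in Selenoh, 243 nt in Selenow, 105 nt in Gpx1, 83 nt in Txnrd2, 78 nt in Selenof and 5 nt in Selenok. Txnrd1 had it in the last exon, and Sephs2 has no junction. The number of in-frame ATG codons, which bear on AHA capture because AHA takes the place of methionine, was 1 in Selenow and Selenof, where only the start codon encodes methionine, and reached 14 in Txnrd2 and 17 in Sephs2.

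Footprints were counted on all 10 main transcripts in every library, with 30 to 756 reads per library and transcript. Txnrd1 was the highest by CPM, with 71.4, 66.0 and 64.6 CPM in standard replicates 1, 2 and 3 and 66.1 and 70.3 CPM in AHARIBO replicates 1 and 2. Txnrd2 was the lowest, with 5.60, 4.53 and 4.76 CPM in standard and 4.64 and 5.09 CPM in AHARIBO RIBO-seq. Levels thus spanned more than 10-fold between the 2 reductases, and within either of them the ranges of the methods overlapped. Among the main transcripts of all 21884 protein-coding genes, the mean level of Txnrd1 lay at percentile 95.9, that of Gpx4 at 94.6, that of Gpx1 at 91.8 and that of Txnrd2 at 61.9.

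CPM grows with the length of the coding sequence, and levels were therefore compared between genes per kb of coding length, over all 5 libraries. Gpx4 was the highest at 95.2 ± 8.02 CPM per coding kb (SD, n = 5), followed by Selenoh at 72.8 ± 8.65, Selenof at 69.1 ± 2.19 and Gpx1 at 67.0 ± 6.57. The range of each of these genes overlapped that of the next in the order, although Gpx4 was above Selenoh in 5 of 5 libraries. The order of Selenoh, Selenof and Gpx1 changed with the library, and Selenof was above Selenoh in AHARIBO replicate 1 (68.8 against 61.6). Selenow (49.9 ± 5.03) and Txnrd1 (45.2 ± 1.98) formed a lower pair that did not overlap Gpx1 or Selenok.

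Selenok (25.3 ± 2.57), Selenot (25.1 ± 2.40) and Sephs2 (23.3 ± 2.30 CPM per coding kb, SD, n = 5) overlapped each other. Txnrd2, at 3.25 ± 0.287, stood apart from all others. By this scale the mitochondrial reductase was read by ribosomes far less than the cytosolic one, and the ranges of the 5 libraries were 2.99 to 3.70 against 43.1 to 47.7 CPM per coding kb. These levels treat all reads of a transcript as coding, which was not checked here, because the table holds no positions.

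**Figure D2:**
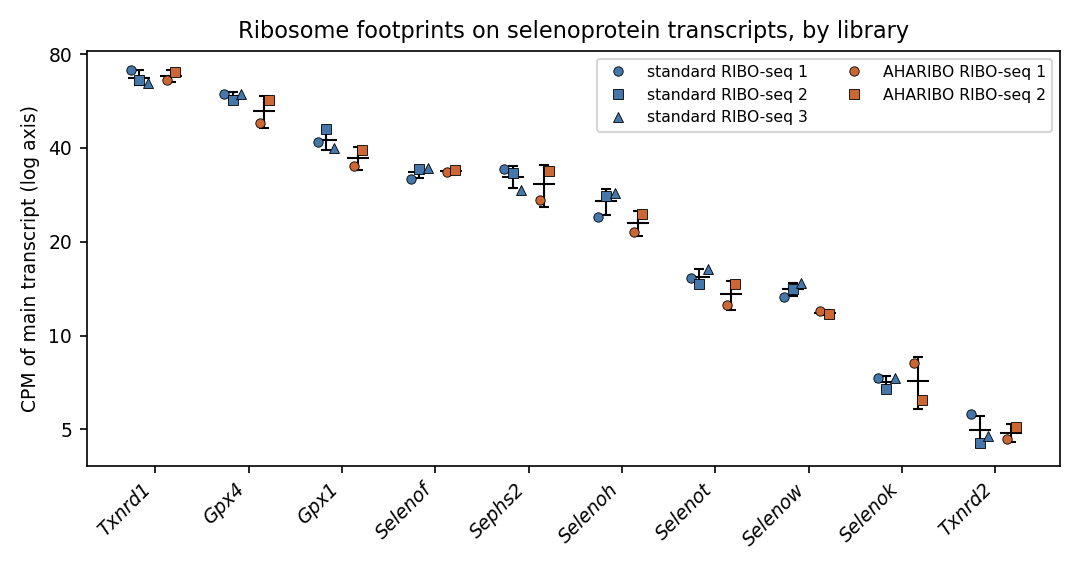
CPM of the main transcript of each selenoprotein (log axis) in the 3 standard (blue) and 2 AHARIBO libraries (orange), ordered by mean level, with horizontal marks for group means and bars for the SD. The AHARIBO points lie below all standard points for Gpx4, Gpx1, Selenot and Selenow, and overlap the standard points or lie to either side of them in the other 6 genes.

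The comparison of both methods asks whether ribosomes caught by their nascent peptide carry these mRNAs in the same proportion as ribosomes sedimented without selection. With edgeR's quasi-likelihood test over 66972 transcripts, of which 4.51% had an adjusted p under 0.05 (2.27% higher and 2.24% lower in AHARIBO RIBO-seq), 0 of the 10 selenoprotein main transcripts were called. Of the main protein-coding transcripts of all genes, 5.12% were. At an unadjusted p under 0.05 there were 2, Gpx1 and Selenoh, where 18.7% of all transcripts lay under it. DESeq2 gave 6 of the 10 an adjusted p and called 0 of them, against 1.78% of the transcripts to which it gave one. The log2 fold changes of AHARIBO over standard RIBO-seq ran from -0.24 to 0.03 with a median of -0.13, beside a median of 0.00 over all protein-coding main transcripts. In 4 of the 10 genes both AHARIBO libraries lay below all 3 standard libraries and in 0 above, whereas 17.1% of all main protein-coding transcripts lay below and 17.2% above.

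The peroxidases were both among these 4. Gpx1 had 41.8, 45.9 and 40.0 CPM in standard and 35.0 and 39.3 CPM in AHARIBO RIBO-seq. The higher AHARIBO library stood just under the lowest standard library, and the log2 fold change of -0.20 (SE 0.09, edgeR adjusted p = 0.192) was -0.12 without AHARIBO replicate 1. Gpx4 had 59.6, 57.0 and 59.7 CPM in standard and 48.1 and 56.9 CPM in AHARIBO RIBO-seq. AHARIBO replicate 2 was level with standard replicate 2, replicate 1 was lower, and the log2 fold change of -0.16 (SE 0.09, edgeR adjusted p = 0.295) was -0.044 without it.

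Among the small thioredoxin-like proteins, Selenow had 13.3, 14.1 and 14.8 CPM in standard and 12.0 and 11.7 CPM in AHARIBO RIBO-seq. Its groups did not overlap, and its log2 fold change of -0.24 (SE 0.12, edgeR adjusted p = 0.283) was the lowest of the 10. Selenot had 15.3, 14.7 and 16.3 CPM in standard against 12.5 and 14.6 CPM in AHARIBO RIBO-seq, with a log2 fold change of -0.19 (SE 0.12, edgeR adjusted p = 0.419) that was -0.076 without AHARIBO replicate 1. Selenoh had 24.1, 28.0 and 28.7 CPM in standard and 21.4 and 24.5 CPM in AHARIBO RIBO-seq. Here standard replicate 1 lay between both AHARIBO libraries, and the log2 fold change of -0.23 (SE 0.10, edgeR adjusted p = 0.201) was -0.13 without AHARIBO replicate 1.

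Duplicate reads moved several of these values. Selenow lost 53.8% to 66.6% of its reads as duplicates, Selenok lost 6.15% to 25.6%, and the libraries as a whole lost 43.3% to 47.7%. With duplicate reads kept, Selenow had 20.5, 23.8 and 22.0 CPM in standard and 17.7 and 14.0 CPM in AHARIBO RIBO-seq, here without TMM factors. On these counts it was called, with a log2 fold change of -0.46 (edgeR adjusted p = 0.0478), as the only 1 of the 10, beside 3.43% of all transcripts tested on them. Selenot, with 16.5, 15.2 and 14.2 CPM in standard and 9.61 and 12.1 CPM in AHARIBO RIBO-seq, came to -0.49 (edgeR adjusted p = 0.0543). Selenok came to 0.21 (edgeR adjusted p = 0.532), against 0.03 without duplicates. Copies made by PCR and separate footprints with the same ends cannot be told apart in reads without molecular identifiers.

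Without duplicates, Selenof, Selenok and both reductases, the genes with the UGA past the middle of the coding sequence, lay within 0.04 of 0 on the log2 scale. A link of the fold change with the place of the UGA was not tested. Selenof had 31.8, 34.3 and 34.4 CPM in standard and 33.4 and 34.0 CPM in AHARIBO RIBO-seq, a log2 fold change of 0.01 (SE 0.09). Selenok had 7.28, 6.73 and 7.30 CPM in standard and 8.14 and 6.19 CPM in AHARIBO RIBO-seq. Its AHARIBO libraries lay on either side of all standard libraries, and the log2 fold change of 0.03 (SE 0.16) became -0.19 or 0.20 when AHARIBO replicate 1 or 2 was left out. The values were 0.02 (SE 0.08) for Txnrd1 and -0.04 (SE 0.19) for Txnrd2, with edgeR adjusted p-values of 0.949 and 0.947. Sephs2, with an early UGA, had 34.3, 33.3 and 29.3 CPM in standard and 27.3 and 33.9 CPM in AHARIBO RIBO-seq, groups that overlapped, and a log2 fold change of -0.10 (SE 0.10) that was 0.056 without AHARIBO replicate 1.

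The fold change went with coding length in genes at large. Over all protein-coding main transcripts tested, the median log2 fold change was -0.11 for 1775 transcripts of up to 200 codons (interquartile range -0.26 to 0.05), -0.04 for 4998 of more than 200 and up to 500 codons, 0.04 for 3864 of up to 1000 codons, and 0.11 for 1723 longer ones. Selenow, Selenoh, Selenot and Gpx4 lay within the interquartile range of the shortest class, as did Selenof and Selenok on its upper side. Gpx1, of 201 codons, lay just below the interquartile range of its own class, which reached from -0.19 to 0.11. Within the shortest class the median was -0.17 for 160 transcripts whose only ATG codon was the start codon, -0.11 for 988 with 2 to 4, and -0.08 for 456 with 5 to 9. Selenow (-0.24) and Selenof (0.01) both belong to the first of these sets, and lay on opposite sides of its median.

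**Figure D3:**
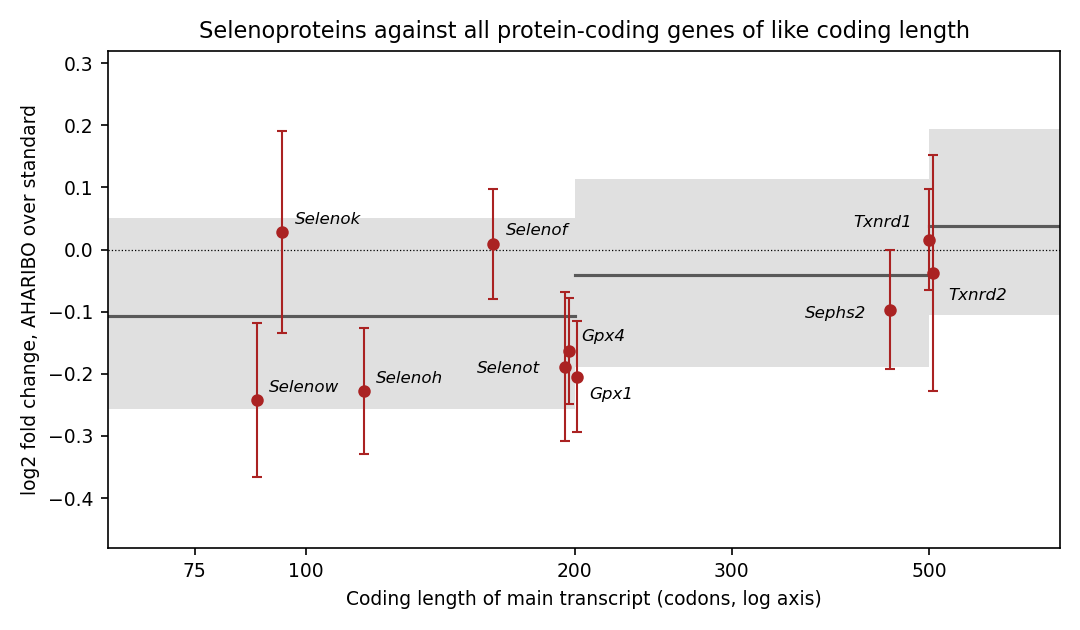
Log2 fold change of AHARIBO over standard RIBO-seq of each selenoprotein's main transcript (points, with SE bars) against its coding length in codons (log axis). Grey bands and lines give the interquartile range and median of all protein-coding main transcripts up to 200, from 200 to 500 and from 500 to 1000 codons; 9 of the 10 selenoproteins lie within the band of their length.

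The table holds no read positions, but the isoforms of a gene share parts of the main transcript and so bound where its reads lie. How a read that matches several transcripts was counted is not given in the sources used here. In 532 of 532 cases a transcript whose sequence lies wholly within the main transcript of its gene had no more reads than it in any library. This would be seen if reads were counted on every transcript they match. The main transcript was itself picked for its high level, so this count cannot decide the question. The values below assume that reads were counted on every transcript they match. Each value is the number of reads of an isoform as a percentage of the reads of the main transcript. It is a ratio and not a true share where the isoform has sequence of its own, since reads there enter the isoform's count alone. Of the 44 member transcripts other than the main transcripts, this ratio lay below all standard libraries in both AHARIBO libraries in 8 and above them in 7, and overlapped in 29. Of 55078 such isoforms of all genes, 14.8% lay below and 14.4% above, so that the members' counts were near this background. The 7 described below were picked from these 15 after their values had been seen, and are given as values without a test. Gpx1-204 consists of nt 223 to 263 and nt 368 to 979 of the Gpx1 main transcript and of nothing else. It thus lacks nt 264 to 367, a stretch of 104 nt that begins in the codon after the start codon and ends 31 nt before the first base of the UGA.

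Gpx1-204 held 24.9%, 27.9% and 27.8% of the reads of the main transcript in standard RIBO-seq and 35.0% and 34.0% in AHARIBO RIBO-seq. The 95% Wilson intervals of single libraries overlapped between the methods for most pairs of libraries, from 20.8 to 33.6% over the standard and from 29.5 to 39.8% over the AHARIBO libraries. The remaining 73.1% of the reads in standard (mean of 3 libraries) and 65.5% in AHARIBO RIBO-seq (mean of 2) must therefore touch the part of the transcript that Gpx1-204 lacks, if a read counts only on transcripts that hold its whole sequence. The footprint of a ribosome at the start codon would also reach past nt 263 and so be among them. Only a few of them can lie in the outer part of the 5′ untranslated region or at the 3′ end, because Gpx1-202, which spans nt 190 to 979 except for 3 nt, held 96.8% to 98.8%. Most Gpx1 footprints of both methods thus overlapped a region ahead of the recoded UGA.

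Gpx1-203 gives the complementary view, since it covers nt 1 to 531 and then runs into an intron. Its reads came to 92.0%, 89.9% and 91.3% of those of the main transcript in standard and 85.5% and 86.0% in AHARIBO RIBO-seq. It stops 133 nt after the first base of the UGA, at 45.1% of the coding sequence, so that at least 22 to 42 reads per standard library and 55 to 58 per AHARIBO library reached beyond that point or its junction. In 1377 isoforms of other genes that begin at or before the coding sequence and end within 10 percentage points of the same place, the median ratio was 51.3% in standard RIBO-seq (interquartile range 43.4 to 60.5%). As a description and not a test, 15 of these (1.09%) were as high as Gpx1-203 or higher, and the matching values in AHARIBO RIBO-seq were a median of 49.0% and 18 isoforms (1.31%). Reads on the 369 nt that Gpx1-203 has of its own would add to its ratio, and their part was not tested.

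The same comparison could be made for 3 other member isoforms. Selenot-202 covers nt 63 to 564 of its main transcript, ends at 79.1% of the coding sequence and 318 nt after the first base of the UGA, and has a further 279 nt of its own. Its ratio was 94.2%, 91.0% and 91.3% in standard and 78.3% and 81.5% in AHARIBO RIBO-seq. The median of 951 other isoforms with a like end was 79.6% in standard RIBO-seq, and 7.57% of them were as high or higher. In AHARIBO RIBO-seq the median was 77.0%, and 38.9% were as high or higher. The mean ratio of Selenot-202 differed by 12.2 percentage points between the methods (92.1 ± 1.76%, SD, n = 3, against 79.9 ± 2.25%, SD, n = 2), and the groups did not overlap. Selenok-202, which ends at 99.6% of the coding sequence, had a mean ratio of 84.9% in standard RIBO-seq, below the median of 92.3% for 448 other isoforms, of which 74.6% were as high or higher. Txnrd2-201, which ends at 58.9% of it, had 71.1% against a median of 62.9%, and 25.6% of 1108 others were as high or higher.

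Isoforms of Gpx4 and Selenof gave values of the same kind. Gpx4-203, which covers nt 646 to 883, the end of the coding sequence and the start of the 3′ untranslated region, and 42 nt of its own, had 9.96%, 10.5% and 8.24% in standard and 17.3% and 13.0% in AHARIBO RIBO-seq. Gpx4-206, over nt 621 to 885 and 115 nt of its own, had 6.91% to 9.50% and 12.3% to 16.2%. Although it covers all of the shared stretch of Gpx4-203 it had fewer reads in every library (48 against 53 in standard replicate 1). Sequence of its own interrupts that stretch in Gpx4-206, and a read of the main transcript across that place would not match it. Reads on own sequence or across its ends may also take part in these ratios. Gpx4-205, over the earlier nt 229 to 608, overlapped, with 64.9% to 70.5% in standard and 59.5% and 65.1% in AHARIBO RIBO-seq. Selenof-206, which shares only nt 289 to 374 around the start codon, had 33.8%, 35.0% and 30.4% in standard and 24.3% and 22.9% in AHARIBO RIBO-seq, while Selenof-203 (nt 375 to 1091, with 108 nt of its own) had 55.6% to 61.8% in standard and 62.4% and 64.7% in AHARIBO RIBO-seq. With duplicate reads kept, the groups of Selenof-203 overlapped (45.9% to 58.9% in standard, 54.1% and 61.7% in AHARIBO RIBO-seq), and those of the other 6 isoforms did not.

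The remaining 8 isoforms whose groups did not overlap belong to Txnrd1, Txnrd2, Selenoh, Gpx4 and Selenof. Txnrd1-202, which shares nt 38 to 201 at the 5′ end but has 319 of its 483 nt of its own, had 8.36% to 12.2% in standard and 7.81% and 8.33% in AHARIBO RIBO-seq, and Txnrd1-207, with 2385 nt of its own, and Txnrd2-216 also lay lower in both AHARIBO libraries. Txnrd2-204, with nt 1091 to 1296, had 2.00% to 3.33% in standard and 3.92% and 5.66% in AHARIBO RIBO-seq, on very few reads. Selenoh-201 and Selenoh-205, which share most of the Selenoh main transcript, lay lower, and Gpx4-201 and Selenof-204 higher, by less than 10 percentage points each.

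**Figure D4:**
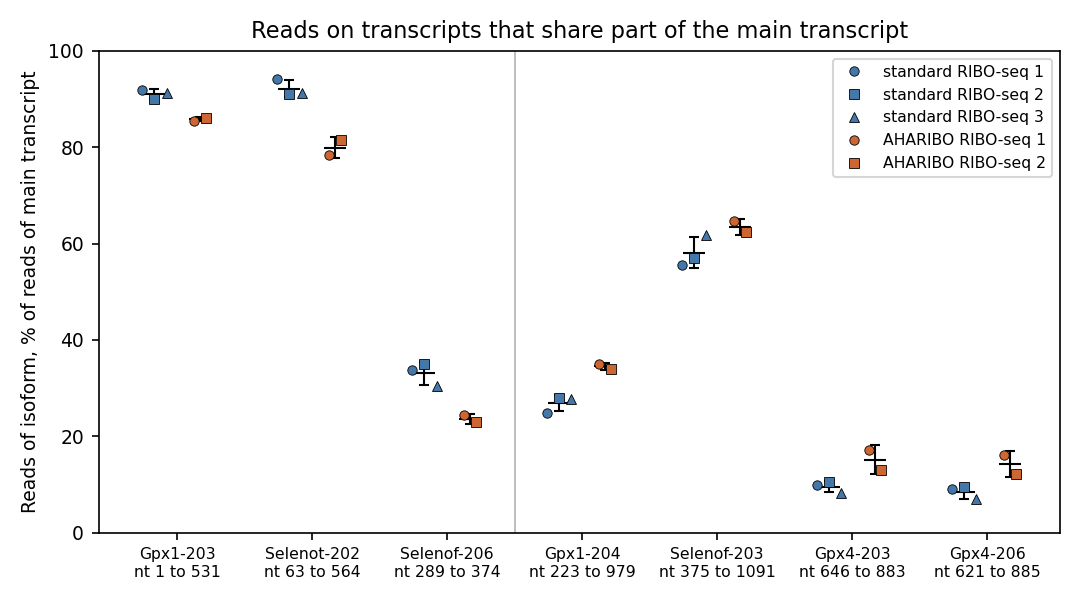
Reads on isoforms that share part of the main transcript, reads on their own sequence included, as a percentage of the reads of the main transcript, for each of 3 standard (blue) and 2 AHARIBO libraries (orange), with group means and SD bars; nt positions are those of the main transcript, and Gpx1-204 lacks nt 264 to 367. All 7 were picked for groups that do not overlap: the 3 isoforms left of the grey line, which include the start codon, lie lower in both AHARIBO libraries, and the 4 right of it, of which Gpx1-204 also holds the start codon, lie higher.

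Of the 39 tested member transcripts other than the main ones, edgeR called 1, Selenof-206, beside 4.51% of all transcripts tested. It had 10.8, 12.0 and 10.5 CPM in standard and 8.14 and 7.79 CPM in AHARIBO RIBO-seq, a log2 fold change of -0.48 (SE 0.14, edgeR adjusted p = 0.0350). This isoform is annotated as a retained intron, and 2613 nt of it are not in the main transcript, so that part of its reads may come from there. Its call was lost with duplicate reads kept (-0.36, edgeR adjusted p = 0.230) and without any 1 of 4 libraries, standard replicate 1 or 2 or either AHARIBO replicate (edgeR adjusted p of 0.0854, 0.129, 0.224 and 0.114). Gpx1-203 (-0.29, edgeR adjusted p = 0.0515), Gpx4-206 (0.55, edgeR adjusted p = 0.0520) and Selenot-202 (-0.39, edgeR adjusted p = 0.0639) were just above the threshold.

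Isoforms of all genes were sorted by the place of the shared part in the coding sequence, with bounds at 25% and 75% of it. Of 6292 isoforms whose shared part centres before the first bound, the AHARIBO ratio lay below all standard libraries in 25.8% and above in 7.93%. Of 3560 isoforms that centre beyond the second bound, it lay above in 24.4% and below in 6.99%, and of 7296 in between it lay above in 17.1% and below in 14.2%. This set holds tested isoforms made mostly of shared sequence, which covers an unbroken stretch of at most 60% of the main transcript. The selenoproteins had 12 of them. Of 3 in the first class 1 lay below, of 4 in the middle class 1 lay below, of 5 in the last class 3 lay above, and the other 7 overlapped. The 12 hold 5 of the 15 member isoforms whose groups did not overlap and leave out the other 10, Gpx1-204 and Selenof-206 among them.

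Sequence shared with other genes was most extensive for Gpx4. Gpx4-ps2, a transcribed processed pseudogene on chromosome 10, shares 73.9% of the 30-nt windows of the Gpx4 main transcript. Its transcript Gpx4-ps2-202 had 47.5, 46.9 and 50.0 CPM in standard and 41.1 and 46.5 CPM in AHARIBO RIBO-seq, close to the level of Gpx4 itself, and reads of the one cannot be told apart from reads of the other over the shared part. Selenok shared at most 7.40% of its windows with any of 6 pseudogene copies. This is a percentage of the whole transcript of 1678 nt, of which 1183 nt are 3′ untranslated. The copy Selenok-ps8 had 2.43 to 3.17 CPM in standard and 3.06 and 2.40 CPM in AHARIBO RIBO-seq. Selenok itself had 6.73 to 7.30 CPM and 8.14 and 6.19 CPM, so shared reads may enter its values too, which was not tested. Selenot shared 2.91% with 1 copy and less than 0.8% with each of many unrelated genes. No other member shared a window with another gene in this table.

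The other selenoproteins were all below Selenoh in mean level. The highest of them, Selenoi (17.1 CPM in standard and 17.4 CPM in AHARIBO RIBO-seq), was above Selenot (15.5 and 13.5 CPM), Selenow, Selenok and Txnrd2. Of 14 genes, 10 passed the filter of 1 CPM in a library, and the deiodinases Dio1, Dio2 and Dio3 and the testis protein Selenov did not. By edgeR 0 of the 10 were called, beside 4.51% of all transcripts, 1 had an unadjusted p under 0.05 (Selenom, an endoplasmic reticulum protein, with 4.48, 4.64 and 4.12 CPM in standard and 2.89 and 3.50 CPM in AHARIBO RIBO-seq), beside 18.7% of all transcripts, and the median log2 fold change was -0.07, with 5 genes on each side of 0. DESeq2 gave 1 of them an adjusted p and called 0. The highest were Selenoi, the ethanolamine phosphotransferase that makes phosphatidylethanolamine, with 15.7 to 19.6 CPM in standard and 16.5 and 18.3 CPM in AHARIBO RIBO-seq, and Txnrd3, the third thioredoxin reductase, with 8.09 to 10.1 and 9.29 and 10.8 CPM. Each overlapped between the methods.

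The genes that make and decode selenocysteine all had footprints. All 10 passed the filter, and edgeR called 0 of them, with 0 at an unadjusted p under 0.05 (4.51% and 18.7% of all transcripts) and a median log2 fold change of 0.00. DESeq2 gave 2 of them an adjusted p and called 0. Sephs1, the paralogue of Sephs2 that lacks the selenocysteine, had 29.0, 30.6 and 26.0 CPM in standard and 30.3 and 31.8 CPM in AHARIBO RIBO-seq. Its level was close to that of Sephs2 in the same libraries, and the groups overlapped. Eefsec, the elongation factor that brings selenocysteine to the ribosome, had 28.9, 25.8 and 25.9 CPM in standard and 23.8 and 25.9 CPM in AHARIBO RIBO-seq.

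Thiol redox enzymes that use cysteine in place of selenocysteine served as the nearest relatives. Of 20 genes, 16 were tested, 12 of them with a log2 fold change below 0 and a median of -0.06, and edgeR called 1, beside 4.51% of all transcripts. Of all 12360 protein-coding main transcripts tested, 6254 were below 0. Glrx5, a mitochondrial glutaredoxin of iron-sulfur cluster assembly, was lower in AHARIBO RIBO-seq, with 19.6, 18.0 and 17.3 CPM in standard and 12.7 and 13.1 CPM in AHARIBO RIBO-seq, a log2 fold change of -0.51 (SE 0.12, edgeR adjusted p = 0.00500). This call was lost without standard replicate 1 (log2 fold change -0.46, edgeR adjusted p = 0.0626). It was also lost without AHARIBO replicate 1, where the log2 fold change of Glrx5 was -0.49. Prdx1, the cytosolic peroxiredoxin, was the highest of the list with 167, 168 and 178 CPM in standard and 157 and 176 CPM in AHARIBO RIBO-seq. Glrx3, a cytosolic glutaredoxin, had 72.0, 69.4 and 68.1 CPM in standard and 67.1 and 64.8 CPM in AHARIBO RIBO-seq, and its log2 fold change of -0.08 was not called.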

How the data were processed

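Counts of reads per transcript were deposited by the authors without normalization, in 2 versions, with duplicate reads removed (used here) and kept. The authors trimmed reads (Trimmomatic 0.36 per the submitters' processing notes), removed rRNA and tRNA reads, aligned to Gencode M17 transcripts (GRCm38.p6) with STAR, and removed antisense reads. Transcript lengths were deposited beside the counts. Samples were grouped by their labels.

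CPM were computed with TMM factors over all transcripts in edgeR 4.0.16 (R 4.3.3), transcripts with 1 CPM in at least 1 library were tested with the quasi-likelihood test, with Benjamini-Hochberg adjustment across the 66972 tested. Standard errors were derived from each fold change and its F value, as approximations. DESeq2 1.42.0 served as an alternative, with others named in the closing section. In simulated data edgeR recovered 98% of transcripts changed 2-fold and DESeq2 77%. Counts were drawn independently with the same dispersion for all transcripts, and only transcripts above the mean level of Txnrd2 were changed. Recovery of changes as small as those of the selenoproteins (log2 fold changes from -0.24 to 0.03) was not simulated. Gene names, coding sequences and UGA codons came from Gencode M21, to which 99.8% of transcripts matched. Genes were named by a rule: all members, any called member isoform, called genes and the 2 highest of each other list, and genes sharing 10% of a member's 30-nt windows. The other genes, isoforms and markers named were chosen after their values were seen. The members and lists were chosen with earlier results of these data known. A count of 3 reads, taken as the floor, was 0.262 to 0.476 CPM. Intervals and this floor cover counting error only.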

Additional observations from a re-analysis of the deposited data

How the results depend on the processing

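The selenoproteins were called in 0 of 10 genes under all settings run except with duplicate reads kept, which called 1, Selenow, by edgeR, beside 2070 of 60283 transcripts. Of 126 member fold changes recomputed under alternatives, 115 kept their sign and their side of the threshold and 10 changed sign, all of 5 genes with main values from -0.10 to 0.03. Over all transcripts, the 3021 calls of edgeR became 267 with DESeq2, 921 (578 higher and 343 lower in AHARIBO RIBO-seq, against 1520 and 1501) with 1 transcript per gene, 28 with the sum of protein-coding transcripts, 105 at the stricter threshold (an adjusted p up to 0.01 and a log2 fold change of 1.5 or more in size), and between 510 and 3829 when each library was left out, with the lowest count without AHARIBO replicate 1. The 1 call among the cysteine relatives, Glrx5, became 0 with the sum, at the stricter threshold, and with DESeq2, which gave that gene no adjusted p, and 0 to 1 when each library was left out. With each library left out, the log2 fold change ran from -0.029 to 0.031 in Selenof, from -0.19 to 0.20 in Selenok, from -0.25 to 0.056 in Sephs2, from -0.026 to 0.062 in Txnrd1, from -0.11 to 0.069 in Txnrd2, from -0.28 to -0.044 in Gpx4, from -0.29 to -0.076 in Selenot, from -0.29 to -0.12 in Gpx1, from -0.32 to -0.13 in Selenoh and from -0.28 to -0.21 in Selenow, with the value nearest 0 without AHARIBO replicate 1 in the first 4 of these last 5. A lone AHARIBO library was assumed to vary like the standard ones. With duplicate reads kept, a choice added after seeing the data, the 7 isoform ratios kept the sign of their mean difference, the groups overlapped in Selenof-203, and the gap of Gpx1-203 changed from -5.27 to -3.15 percentage points. The cause of these changes was not tested.

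Same-numbered libraries of the methods were not treated as pairs in the main fit. The correlation of their deviations from the group means was 0.04 for number 1 and -0.09 for number 2. With 2 AHARIBO libraries these deviations mirror each other, so the correlations cannot show whether the libraries were paired. With the replicate number as a block, 1792 transcripts were called, 0 of them selenoprotein main transcripts, the log2 fold change of Txnrd1 was -0.010, and no other call on the members or lists changed. Depth limits Txnrd2 and Selenok most, with 30 to 93 reads per library.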
